A study of Mus musculus with 25 samples.

Results

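The right atrium of the mouse heart was compared between embryonic day 14.5 (E14.5) and postnatal day 14 (P14), across all genes of the deposited expression table. The comparison uses 6 of the 25 samples of the series, the right atrial libraries whose titles give those stages, with 3 libraries per stage. The study profiled the sinoatrial node, the pacemaker region of the heart, and the right atrium (RA), the working muscle beside it, at several stages. All 6 libraries came from mice of the genotype Hcn4-GFP on a mixed background, a reporter of the pacemaker channel gene Hcn4 by its name, and both stages carry it. Hearts or embryos were frozen, cut at 8 µm and outlined by eye under a laser capture microscope, and the remaining sections were then stained for Hcn4 to check what had been taken. Total RNA was primed with random and poly-T primers and amplified by a single primer isothermal method, and laser power varied between experiments. Sex, pooling and the animal behind each library are not in the labels. The p-values therefore rest on library-to-library spread alone, which may be technical. A further 3 RA libraries from postnatal day 4 (P4) and 6 node libraries from E14.5 and P14, of the same genotype, serve below for timing and for comparison.

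Before birth the atrial wall grows by division of its muscle cells, works in low oxygen, and draws much of its energy from glucose and lactate. After birth heart muscle cells leave the cell cycle, pack in mitochondria, turn to fatty acids as fuel, and exchange fetal isoforms of contractile and metabolic proteins for adult ones. The atria keep a role of their own as an endocrine organ that secretes natriuretic peptides, and as muscle under dense vagal and sympathetic control.

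Values are given as CPM, the deposited signal divided by 24.3, a constant common to all libraries that brings the mean library total to the CPM scale. The 6 libraries held 6608420 to 12357437 recovered reads, and 1 read was worth 0.0891 to 0.184 CPM. Differences are log2(CPM + 1) at P14 minus that at E14.5, with the standard error (SE) from limma, and a gene is said to rise or fall where its Benjamini-Hochberg adjusted p over 17568 tested genes was under 0.05. The tissue label was checked against markers. The 5 atrial myocyte markers summed to 5220 to 7220 CPM at E14.5 and 10070 to 13640 CPM at P14, whereas the node factor Isl1 stayed at 0, 0 and 0.445 CPM at E14.5 and 0.584, 0.178 and 0 CPM at P14. The 5 ventricular markers summed to 166 to 183 CPM at E14.5 and 104 to 147 CPM at P14, with the regulatory light chain gene Myl2 at 4.96, 11.6 and 0.178 CPM at E14.5 and 5.40, 1.07 and 0.148 CPM at P14. Hcn4 itself stood at 14.3, 31.1 and 25.5 CPM at E14.5 and 15.9, 5.17 and 4.43 CPM at P14, against 1245, 1351 and 1143 CPM in the node at E14.5. In these bulk samples fewer cells of a type and less RNA per cell cannot be told apart.

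Of 17568 genes, 3988 (22.7%) were called by limma, 1052 higher at P14 (5.99%) and 2936 lower (16.7%). The split between rises and falls depended on how libraries were scaled. On the deposited scale the median gene differed by −0.37, and 26.4% of calls were rises. With TMM (trimmed mean) scaling on the recovered reads, edgeR put the median at −0.03 and called 1569 genes higher (8.93%) and 1146 lower (6.52%), so that 57.8% of its calls were rises. Differences are therefore to be read relative to a shift of −0.37, and the edgeR counts of each gene list for P14 against E14.5 stand beside those of limma. Under limma on 4 scalings and edgeR alike, 739 genes were higher and 1118 lower. The groups did not overlap in 7689 genes (43.8%). Among called genes they did not overlap in 1028 of 1052 rises and 2895 of 2936 falls. Lack of overlap in a called gene, where given below, therefore adds little to its call. Without E14.5 replicate 2 the count of falls was 1956.

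The largest changes were ranked over called genes with no overlap between the stages and a mean of 5 CPM or more at one of them, leaving out hemoglobins, unnamed gene models and the like. Dpt, Mb and Hamp were among the 15 largest rises. Dpt, which encodes the matrix protein dermatopontin, stood at 1.58, 0 and 0.356 CPM at E14.5 and 208, 659 and 199 CPM at P14, a difference of 7.64 ± 0.52 (adjusted p = 1.1e-09). Replicate 2 was the highest at P14. Mb encodes myoglobin, the oxygen store of muscle, and stood at 10.8, 8.11 and 8.02 CPM at E14.5 and 1417, 1596 and 1812 CPM at P14 (7.34 ± 0.69, adjusted p = 1.2e-07). Its P14 libraries were close to one another. Hamp, the gene of the iron hormone hepcidin, was listed at 0 in the 3 E14.5 libraries and stood at 112, 278 and 123 CPM at P14. Against a floor of 3 reads per library this is at least 309-fold higher. Reads could be shared with its close copy Hamp2, which stood at 0.113, 0 and 0 CPM at E14.5 and 8.62, 9.98 and 5.76 CPM at P14.

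Other genes among the 15 largest rises were Podn, a small leucine-rich proteoglycan (7.35), Fndc5, the precursor of irisin (6.65), Igfbp7, an insulin-like growth factor binding protein (6.53), Mylk4, a myosin light chain kinase (6.31), Ces1d, a carboxylesterase and lipase (6.30), and Col15a1, a basement membrane collagen (6.24). Aoc3, an amine oxidase of vascular cells and fat (6.01), Rgs5, a pericyte gene (5.94), the transporter Abca8a (5.73), Cp, the ferroxidase ceruloplasmin (5.53), Lynx1, a modulator of nicotinic receptors (5.53), and Rgs7, a regulator of G protein signalling (5.46), made up the rest. All 15 kept their calls in each alternative setting.

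Bmp7 and Hif3a were among the 15 largest falls by the same conditions. Bmp7, a bone morphogenetic protein, stood at 130.3, 142 and 135 CPM at E14.5 and 1.75, 0 and 0 CPM at P14 (−6.61 ± 0.41, adjusted p = 2.8e-10), and 2 of the 3 P14 libraries were at 0. Hif3a, a member of the hypoxia-inducible factor family, stood at 431, 676 and 313 CPM at E14.5 and 8.18, 3.39 and 9.16 CPM at P14 (−5.93 ± 0.41). Lack of overlap between the stages was again a condition of the ranking. Dlk1, an imprinted ligand of fetal tissue, fell (−6.15), as did Igfbp2 (−5.88), the activin and nodal receptor gene Acvr1c (−5.66), the transcription cofactor gene Cited1 (−5.27), the diacylglycerol kinase gene Dgkk (−5.70), and the ganglioside synthase gene St8sia1 (−5.55). The other large falls were Cnn1 (calponin, −5.02), Cdkn1c (−4.93), Capn6 (−4.92), Ccdc144b (−4.85), the collagen gene Emid2 (−4.83), Igf2bp1 (−4.75) and Mest (−4.71).

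**Figure D1:**
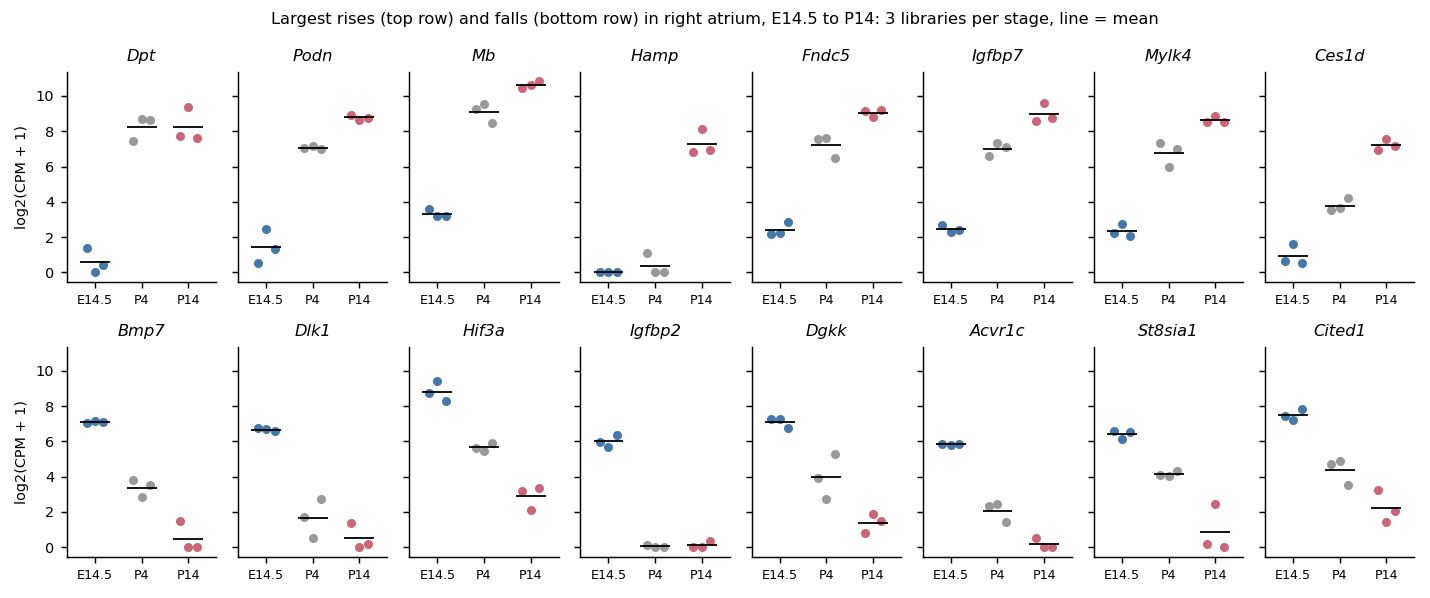
Level of the 8 largest rises (top) and 8 largest falls (bottom) in each right atrial library, as log2(CPM + 1), at E14.5, P4 and P14, with 3 libraries per stage as points and their mean as a line. Lack of overlap between the E14.5 and P14 libraries was a condition for a gene to be ranked. Hamp is at 0 in each E14.5 library, and Igfbp2 is already near 0 at P4.

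Genes of the sarcomere, the contractile unit of muscle, rose more often than they fell. In that list 19 of 41 tested members rose and 6 fell (22 and 3 in edgeR), with a median of 0.47 against −0.37 over all genes; scaling libraries to the mean log2 level of the same list gave 12 and 12. Tcap, which anchors titin at the Z-disc, stood at 12.4, 8.84 and 9.89 CPM at E14.5 and 100.3, 118 and 108 CPM at P14 (3.28 ± 0.28, adjusted p = 4.3e-08), and its groups did not overlap. Myoz2, a Z-disc protein that binds calcineurin, rose by 2.18, Lmod2, which sets thin filament length, by 2.32, Xirp2, of the intercalated disc, by 3.69, and Actn2 (alpha-actinin) by 0.98. Ttn, the titin gene, differed by 0.62 (adjusted p = 0.0203), a call lost without E14.5 replicate 3 or P14 replicates 1 or 3 and in 6 other settings, adjusted p up to 0.215. Tnnt2 (cardiac troponin T) and Actc1 (cardiac actin) were not called by limma, at −0.47 and 0.20. Each was called in 3 alternative settings, for Actc1 with edgeR among them (0.59, adjusted p = 0.0129).

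The member that moved furthest against the list was the slow skeletal troponin I of the fetal heart. Tnni1 stood at 851, 601 and 823 CPM at E14.5 and 29.8, 40.7 and 26.1 CPM at P14 (−4.52 ± 0.22, adjusted p = 3e-11), with the 3 P14 libraries far below the others. Tnni3, the cardiac troponin I that takes its place, is known as an abundant gene of postnatal heart, yet it stood at only 3.61, 2.21 and 1.69 CPM at E14.5 and 1.90, 0.713 and 1.18 CPM at P14 and was not called (adjusted p = 0.454). How reads were assigned to Tnni3 was not tested. Tnnt1, slow skeletal troponin T, fell (−2.35). Myh6, the alpha myosin heavy chain, stood at 10282, 11377 and 7781 CPM at E14.5 and 21145, 21933 and 18154 CPM at P14, and Myh7, the beta chain, at 1260.3, 1640.2 and 1315 CPM at E14.5 and 3394, 3251 and 3072 CPM at P14. Both rose, by 1.07 ± 0.17 and 1.21 ± 0.19, and since the sequences of the pair are nearly identical, reads could be split between them in ways these values cannot separate.

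Paralogs were set side by side, with 1 gene taken as the fetal or general form and its partner as the mature form. Of 21 such pairs, 18 had both genes tested and in 17 of them the mature form had the higher difference. These 17 include pairs without a switch. Both genes fell in Igf2 and Igf1 and in Igf2bp1 and Igf2bp2, whose second members also stand in the list of imprinted and fetal growth genes. Ldha and Ldhb were 0.11 apart, with neither called. In 5 pairs the fetal form fell and the mature form rose: Slc2a1 and Slc2a4, Cox8a and Cox8b, Eno1 and Eno3, Pdk1 and Pdk4, and Pfkp and Pfkm. For glucose transporters, Slc2a1 (GLUT1) stood at 216, 263 and 284 CPM at E14.5 and 17.8, 33.2 and 25.3 CPM at P14 (−3.30 ± 0.26), and Slc2a4 (the insulin-responsive GLUT4) at 21.0, 22.8 and 17.3 CPM at E14.5 and 106, 67.4 and 80.2 CPM at P14 (1.98 ± 0.36). Neither gene's groups overlapped, and both calls held in each alternative setting. Pfkp was the one of these 10 genes whose groups overlapped. The falls of Cox8a, Pdk1 and Pfkp were not called by edgeR (adjusted p = 0.292, 0.187 and 0.481), so that there only the rise of the partner was called. The fall of Cox8a was lost without E14.5 replicates 1 or 3 or P14 replicates 1 or 2 and in 5 other settings, adjusted p up to 0.304. That of Pdk1 was lost without E14.5 replicates 2 or 3 or P14 replicate 3 and in edgeR, DESeq2 and limma on recomputed TMM, adjusted p up to 0.187, and that of Pfkp without E14.5 replicates 1 or 2 or P14 replicates 1 or 3 and in 7 other settings, adjusted p up to 0.481. The rise of Eno3 was lost without E14.5 replicates 2 or 3 or P14 replicate 3 and in sarcomere scaling and limma without the trend, adjusted p up to 0.174.

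**Figure D2:**
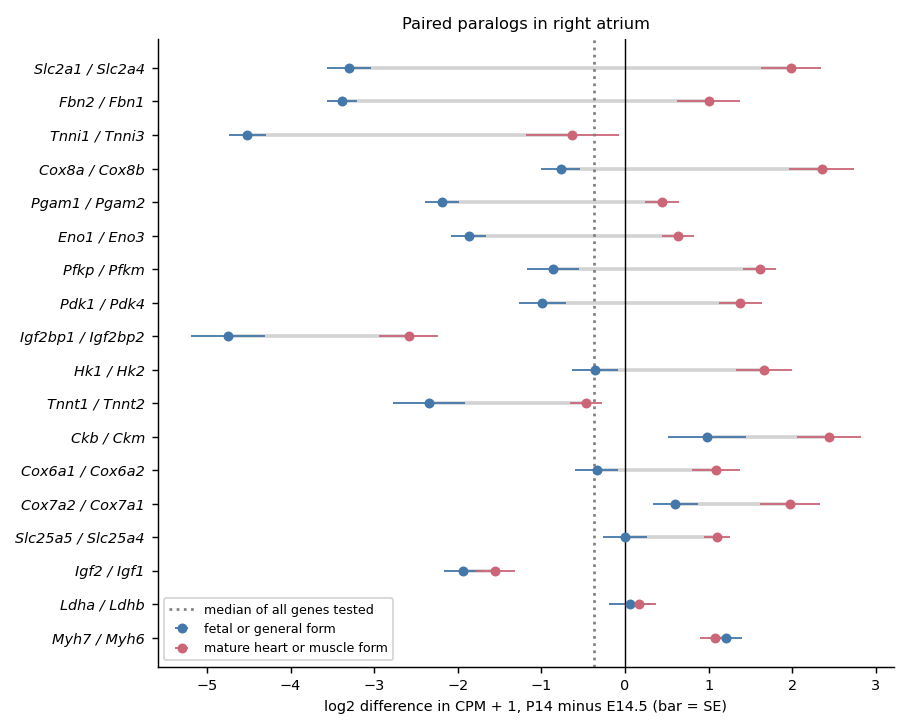
Log2 difference in CPM + 1 between P14 and E14.5 for 18 pairs of paralogs, with bars of 1 SE. The gene taken as the fetal or general form is in blue and the partner taken as the mature form in red. A dotted line marks the median of all genes tested. Myh7 and Myh6 is the single pair in which the mature form had the lower difference.

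Several genes that move calcium in and out of the sarcoplasmic reticulum rose. In the calcium list 8 of 31 tested members rose and 5 fell (12 and 4 in edgeR), with a median of −0.02. Atp2a2, the reticulum pump SERCA2, stood at 2771, 3593 and 3051 CPM at E14.5 and 11138, 7487 and 11405 CPM at P14 (1.66 ± 0.19, adjusted p = 1.4e-06). Sln (sarcolipin), its atrial inhibitor, stood at 106, 88.6 and 75.9 CPM at E14.5 and 678, 333 and 914 CPM at P14 (2.71 ± 0.29). Ryr2, the release channel, rose by 1.51 and Srl (sarcalumenin), a calcium-binding protein of the reticulum, by 1.33. No E14.5 library of these 4 genes reached the lowest P14 library. Falls included the calcium-dependent kinase gene Camk2a (−2.85) and the T-type channel gene Cacna1h (−3.56). Cacna1h was uneven at P14, at 4.53, 56.6 and 1.03 CPM, and its call was lost in edgeR, adjusted p up to 0.0889. Slc8a1, the sodium-calcium exchanger, was at 555, 615 and 352 CPM at E14.5 and 217, 244 and 198 CPM at P14 (−1.17, adjusted p = 0.00023), a gene picked after its values were seen.

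Potassium channel genes were more often higher than lower at P14: 11 of 30 tested members rose and 3 fell (13 and 2 in edgeR), with a median of 0.79. Kcnj3 and Kcnj5 encode the 2 subunits of the channel that acetylcholine opens through G proteins. Kcnj3 stood at 82.2, 124 and 61.0 CPM at E14.5 and 542, 479.8 and 636 CPM at P14 (2.67 ± 0.32). Kcnj5 stood at 192, 173 and 167 CPM at E14.5 and 557, 1040.1 and 594 CPM at P14 (1.98 ± 0.22), with no overlap in either. Kcnip2, the subunit of the transient outward current, stood at 1.13, 1.47 and 0.535 CPM at E14.5 and 66.4, 106 and 72.5 CPM at P14 (5.34 ± 0.63). Kcna1, a voltage-gated channel, stood at 0.226, 0 and 0.623 CPM at E14.5 and 36.1, 61.5 and 55.2 CPM at P14 (5.33 ± 0.58). Both were near the level of a few reads before birth and well above it in each P14 library. Against the list Kcnh7 fell (−2.76, lost in DESeq2, adjusted p up to 0.0519).

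In the sodium list 4 of 16 tested members rose and 1 fell (5 and 0 in edgeR), with a median of 0.25. Scn7a stood at 24.6, 28.7 and 10.9 CPM at E14.5 and 154, 240.3 and 226 CPM at P14 (3.29 ± 0.33, adjusted p = 3e-07), and Scn4a rose by 2.46. The 1 fall, Atp1b2 (−0.71), was lost without E14.5 replicates 1 or 2 or P14 replicates 2 or 3 and in 8 other settings, adjusted p up to 0.437.

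The calls of junction genes, 23.8% of the list against 22.7% of all genes, turned in direction with the scaling. On the deposited scale 2 of 21 tested members rose and 3 fell, against 5 and 0 in edgeR. Ctnna1 (alpha-catenin) rose by 1.04. None of the 3 falls held throughout. That of Pkp2, a desmosome gene (−0.89), was lost without E14.5 replicate 2 and in edgeR, DESeq2 and limma on recomputed TMM, adjusted p up to 0.182. That of Cdh2, N-cadherin (−0.63), was lost without E14.5 replicate 1 or P14 replicate 2 and in 5 other settings, adjusted p up to 0.482. That of Ctnnb1, beta-catenin (−0.47), was lost without E14.5 replicates 1 or 3 or P14 replicates 1, 2 or 3 and in 5 other settings, adjusted p up to 0.825. The rise of Tmem65 was lost in sarcomere scaling, adjusted p up to 0.0613. For the connexins of atrial conduction, Gja1 stood at 188, 179 and 212 CPM at E14.5 and 359, 305 and 319 CPM at P14 (0.76 ± 0.33, adjusted p = 0.0991) and Gja5 at 363, 359.8 and 487 CPM at E14.5 and 260.2, 197 and 242 CPM at P14 (−0.78 ± 0.63, adjusted p = 0.398). The groups of both genes did not overlap, with Gja1 higher and Gja5 lower at P14, but neither was called in the main limma fit. That fit shares 1 estimate of spread over 18 libraries, not over those of the RA alone. Gja1 was called in 7 alternative settings, edgeR among them (adjusted p = 0.02), and Gja5 in 2.

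Many genes known from the atrium rose. In the list of natriuretic peptides and atrial genes 12 of 21 tested members rose and 2 fell (13 and 2 in edgeR), with a median of 0.74. Bmp10, a growth factor of atrial trabecular muscle, stood at 112, 162 and 77.4 CPM at E14.5 and 1354, 1013 and 1148 CPM at P14 (3.37 ± 0.50, adjusted p = 3.9e-05). Nppb, the gene of B-type natriuretic peptide, stood at 38.0, 33.0 and 26.6 CPM at E14.5 and 270.1, 221 and 283 CPM at P14 (2.96 ± 0.68). Nppa, the atrial peptide, stood at 406, 320.3 and 365 CPM at E14.5 and 1379.7, 851 and 1453 CPM at P14 (1.72 ± 0.59, adjusted p = 0.0397). In each of the 3 genes the P14 libraries lay above those of E14.5, but the Nppa call was lost without E14.5 replicates 1, 2 or 3 or P14 replicates 1 or 3 and in 4 other settings, adjusted p up to 0.113. Stard10, a lipid transfer protein, rose by 1.65 and Dkk3, a secreted glycoprotein, by 2.07. The atrial light chain Myl7 was not called in the main fit (0.47) but was in 5 alternative settings. Myl4 rose by 0.74, a call lost without E14.5 replicate 2 or P14 replicate 2 and in 4 other settings, adjusted p up to 0.188. The COUP factor genes of atrial identity fell, Nr2f1 (−1.64) and Nr2f2 (−1.26).

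Genes of autonomic and cAMP signals rose more often than they fell: 12 of 29 tested members rose and 1 fell (15 and 0 in edgeR), with a median of 0.77. Chrm2, the vagal M2 muscarinic receptor, stood at 101, 110.2 and 61.1 CPM at E14.5 and 486, 406 and 415 CPM at P14 (2.29 ± 0.25, adjusted p = 1e-06). Each P14 library was more than 3 times the highest E14.5 library. Gnao1, a G protein alpha subunit, rose by 1.27, Rgs4, which shortens G protein signals, by 3.02, the phosphodiesterase gene Pde1c by 2.01, and Akap6, an anchor of protein kinase A, by 1.41. The fall of Prkar2b (−2.14) was lost without E14.5 replicate 3 or P14 replicate 2 and in edgeR and limma on recomputed TMM, adjusted p up to 0.141.

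Among genes for burning fat and for the respiratory chain, rises outnumbered falls. In fatty acid uptake and oxidation 18 of 36 tested members rose and 0 fell (25 and 0 in edgeR), with a median of 0.79. Acsl1, which activates fatty acids, stood at 57.5, 45.7 and 47.5 CPM at E14.5 and 455, 530.5 and 456 CPM at P14 (3.24 ± 0.25, adjusted p = 9.8e-09). Mgll, monoglyceride lipase, stood at 11.2, 12.0 and 8.82 CPM at E14.5 and 78.9, 55.7 and 80.6 CPM at P14 (2.63 ± 0.30). The libraries of the 2 stages did not overlap in either gene. Pnpla2, which releases fatty acids from stored fat, rose by 1.85, the lipase Lpl by 1.26 and the importer Cd36 by 1.22. At an unadjusted p under 0.05 no member was lower, whereas scaling to sarcomere genes gave 13 rises and 1 fall.

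In the respiratory chain and ATP synthase 33 of 59 tested members rose and 1 fell (47 and 0 in edgeR), with a median of 0.63. Cycs (cytochrome c) stood at 231, 143 and 229 CPM at E14.5 and 474, 604 and 479.9 CPM at P14 (1.39 ± 0.19, adjusted p = 1.9e-05). Atp5g1, a ring subunit of the synthase, stood at 366, 258 and 349 CPM at E14.5 and 755, 1045 and 899 CPM at P14 (1.47 ± 0.24), Ndufs7, of complex I, rose by 1.20 and Ndufa4 by 1.09. The muscle forms of cytochrome oxidase subunits rose, Cox8b by 2.35, Cox7a1 by 1.97 and Cox6a2 by 1.09, the last call lost without P14 replicate 2, adjusted p up to 0.0643. Their general partners Cox7a2 and Cox6a1 were not called by limma (0.60 and −0.34, the second with the opposite sign in edgeR). edgeR called Cox7a2 higher (0.97, adjusted p = 0.0239), so that the general form rose there too.

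In the list of citric acid cycle, creatine and oxygen storage genes 12 of 27 tested members rose and 1 fell (22 and 1 in edgeR), with a median of 0.57. Ckm, the muscle creatine kinase, stood at 28.6, 49.0 and 29.4 CPM at E14.5 and 145, 302 and 161 CPM at P14 (2.44 ± 0.38), Got1 rose by 1.37, Ogdh by 1.08 and Slc25a4, the muscle ADP/ATP carrier, by 1.10. Idh2, the NADP-linked isocitrate dehydrogenase of mitochondria, fell (−1.17), in edgeR too (adjusted p = 0.0111).

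Glycolytic genes went both ways. On the deposited scale 8 of 34 tested members rose and 10 fell (11 and 6 in edgeR, the opposite balance), with a median of −0.31. Pgam1 stood at 374, 399 and 599.8 CPM at E14.5 and 99.6, 84.5 and 109 CPM at P14 (−2.19 ± 0.20, adjusted p = 7.3e-08). Eno1 stood at 454, 382 and 641 CPM at E14.5 and 119, 156 and 122 CPM at P14 (−1.87 ± 0.21), and Gapdh differed by −1.18. The P14 libraries of the 3 genes lay below each E14.5 library, and edgeR called the falls too. Pfkm, muscle phosphofructokinase, stood at 90.4, 86.8 and 73.0 CPM at E14.5 and 237, 326 and 218 CPM at P14 (1.61 ± 0.20) and Hk2, muscle hexokinase, rose by 1.66. Pdk4, which closes pyruvate dehydrogenase when fat is burned, rose by 1.38. Ldha and Ldhb were not called, at 0.06 and 0.17, and their sign turned on sarcomere scaling.

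Regulators of energy metabolism rose less evenly. Among nuclear receptors and metabolic regulators 11 of 35 tested members rose and 4 fell (13 and 2 in edgeR), with a median of 0.24. Ppargc1a, the coactivator PGC-1 alpha, stood at 235, 282 and 177 CPM at E14.5 and 258, 201 and 273 CPM at P14 (0.09 ± 0.26, adjusted p = 0.832). Its groups overlapped, and on sarcomere scaling its sign turned. Its relative Ppargc1b stood at 16.0, 15.7 and 9.62 CPM at E14.5 and 34.2, 54.4 and 31.6 CPM at P14 (1.47 ± 0.32). 2310042D19Rik, the older symbol of Perm1, a muscle regulator that PGC-1 induces, stood at 7.44, 10.9 and 2.49 CPM at E14.5 and 87.0, 67.4 and 78.6 CPM at P14 (3.47 ± 0.40). Of genes picked after their values were seen, Ppara, the fatty acid receptor, was at 2.25 and Thrb, a thyroid hormone receptor, at 1.64 (adjusted p = 0.0101 and 0.0472), while Esrrg and Tfam were at −1.03 and −1.05 (adjusted p = 0.0174 and 0.0445) and not called by edgeR (adjusted p = 0.192 and 0.22).

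In genes known to respond to glucocorticoid or thyroid hormone 10 of 20 tested members rose and 2 fell (11 and 1 in edgeR), with a median of 1.01. Klf9, a target of both hormones, stood at 1.92, 4.42 and 3.03 CPM at E14.5 and 84.4, 48.3 and 76.6 CPM at P14 (4.11 ± 0.40, adjusted p = 1.9e-07). Hr, a corepressor of the thyroid receptor, stood at 0.451, 0.737 and 0.0892 CPM at E14.5 and 30.5, 40.7 and 29.8 CPM at P14 (4.62 ± 0.59). The E14.5 libraries of Hr were under 1 CPM, and each P14 library was above 29. Ppp1r1a, an inhibitor of protein phosphatase 1, fell (−3.27). Among clock genes 7 of 17 tested members rose and 1 fell (9 and 0 in edgeR), with a median of 0.70. Npas2 rose by 3.49, Nr1d1 (REV-ERB alpha) by 1.81, Nr1d2 by 1.49 and Per3 by 0.94. Tef rose by 1.13, a call lost without E14.5 replicates 1 or 3 or P14 replicates 1 or 3, adjusted p up to 0.0787. Nfil3 fell (−1.45), a call lost without E14.5 replicates 1, 2 or 3 or P14 replicates 1, 2 or 3 and in 5 other settings, adjusted p up to 0.132. The hour of collection is not given in the sources used here.

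Of cardiac transcription factor genes 3 of 32 tested members rose and 9 fell (6 and 5 in edgeR), with a median of −0.32. Gata5 stood at 40.3, 48.8 and 38.2 CPM at E14.5 and 2.63, 1.16 and 4.28 CPM at P14 (−3.64 ± 0.38, adjusted p = 5.1e-07). Tbx18, a factor of epicardium and sinus horn, stood at 95.9, 87.7 and 103 CPM at E14.5 and 17.7, 27.8 and 26.4 CPM at P14 (−1.97 ± 0.24). Neither gene's groups overlapped. The methyltransferase gene Smyd2 (−2.71) and Meis2 (−1.38) fell. Tbx3, the node's repressor of chamber muscle genes, stood at 1.80, 1.66 and 2.40 CPM at E14.5 and 16.4, 29.4 and 13.7 CPM at P14 (2.75 ± 0.34). Of 9 node markers tested, 3 rose, Tbx3 and Smoc2 among them, and 3 fell (Tbx18, Vsnl1 and Hcn4; 3 and 2 in edgeR), and the Hcn4 call was lost in edgeR, adjusted p up to 0.0688. Nkx2-5 was not called (−0.66 ± 0.53).

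Cell division genes fell together. Of 44 tested members of the mitosis list, 0 rose and 40 fell (0 and 33 in edgeR), with a median of −2.90 against −0.37 for all genes, and of 26 replication genes 0 rose and 23 fell (0 and 18 in edgeR), with a median of −2.19. At an unadjusted p under 0.05 no member of either list was higher. Mki67, the proliferation antigen Ki-67, stood at 1063, 1114 and 1265 CPM at E14.5 and 129.7, 147 and 168 CPM at P14 (−2.95 ± 0.26, adjusted p = 4.9e-08). Ccnb2, the cyclin of mitotic entry, stood at 88.8, 76.6 and 81.1 CPM at E14.5 and 5.26, 4.54 and 5.76 CPM at P14 (−3.75 ± 0.39, adjusted p = 4.9e-07). Mean Mki67 was 7.76 times as high at E14.5 as at P14, mean Ccnb2 15.8 times, and no library of one stage reached the range of the other. Top2a, which untangles DNA, fell (−2.81), and the kinetochore genes Cenpe and Cenpf did too (−3.40 and −3.08). Of replication genes, the helicase subunits Mcm4, Mcm6 and Mcm7 fell (−2.27, −2.16 and −2.28), as did Rrm1, which supplies nucleotides (−2.50), and Dnmt1, which copies methylation (−2.06). The genes named here kept their calls in each alternative setting. Which cells of the captured tissue were dividing was not tested.

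The promoters of 4 of these genes are shown because the mitosis and replication genes moved together. Printed 5′ to 3′ are the 150 bases before the first listed RefSeq start (GRCm38.p6), with each CCAAT, the element that NF-Y binds, and each TTTGAA, the core of the cell cycle homology region, in capitals on either strand (ATTGG and TTCAAA on the other).
Ccnb2 (chr9:70421555-70421704, minus strand): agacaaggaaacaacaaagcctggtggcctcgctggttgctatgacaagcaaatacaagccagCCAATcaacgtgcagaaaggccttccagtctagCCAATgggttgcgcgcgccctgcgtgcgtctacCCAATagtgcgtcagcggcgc
Top2a (chr11:99024190-99024339, minus strand): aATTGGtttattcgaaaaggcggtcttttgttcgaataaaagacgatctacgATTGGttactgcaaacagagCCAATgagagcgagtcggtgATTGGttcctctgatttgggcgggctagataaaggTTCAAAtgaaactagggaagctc
Mki67 (chr7:135716380-135716529, minus strand): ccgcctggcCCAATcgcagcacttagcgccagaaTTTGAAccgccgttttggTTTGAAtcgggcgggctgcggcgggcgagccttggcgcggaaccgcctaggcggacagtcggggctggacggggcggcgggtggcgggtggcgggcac
Cenpf (chr1:189688087-189688236, minus strand): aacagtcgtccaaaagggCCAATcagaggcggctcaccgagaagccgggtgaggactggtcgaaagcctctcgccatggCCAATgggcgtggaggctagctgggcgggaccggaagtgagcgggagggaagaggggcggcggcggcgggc
Ccnb2 has 3 CCAAT boxes and Cenpf 2, while Top2a has 4 with 1 TTTGAA, and Mki67 has 1 with 2 TTTGAA. Over the 250 bases before the start, CCAAT was found in 22 of 35 mitosis genes with a listed window (62.9%) and 16 of 22 replication genes (72.7%), against 3838 of 10737 tested genes (35.7%). TTTGAA was found in 22.9% and 13.6%, against 10.7%. CCAAT was also found in 10 of 14 genes of the circadian clock list (71.4%), where 7 of 17 members rose and 1 fell, and it stood at 50% in the citric acid cycle list, 42.9% in the fatty acid list, 41.3% in the respiratory chain list and 30.3% in the sarcomere list. TTTGAA was found in 0% of the clock list, 7.14% of the fatty acid, 8.70% of the respiratory chain, 12.1% of the sarcomere and 16.7% of the citric acid cycle list, the last above the replication list. These are matches of letters in a window, not measured sites.

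Inhibitors of the cell cycle went both ways: 4 of 18 tested members rose and 4 fell (4 and 3 in edgeR), with a median of −0.47. Cdkn1c, an imprinted inhibitor of cyclin-dependent kinases (p57), stood at 960.1, 727 and 714 CPM at E14.5 and 18.7, 39.4 and 21.1 CPM at P14 (−4.93 ± 0.35, adjusted p = 1.7e-09), all P14 libraries lying far below all of E14.5. Rbl1 fell (−1.64) and Meis1, a factor known to restrain division of postnatal heart muscle, (−1.48). Gadd45g rose by 2.73 and Btg2 by 2.18.

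Growth genes of the fetus fell broadly. In the list of imprinted and fetal growth genes 2 of 31 tested members rose and 24 fell (2 and 19 in edgeR), with a median of −2.11. Igf2, the fetal growth factor, stood at 6113, 8141 and 8664 CPM at E14.5 and 2275, 1403 and 2372 CPM at P14 (−1.94 ± 0.23). Its receptor and sink Igf2r stood at 2635, 2637 and 2411 CPM at E14.5 and 344, 409.7 and 350.3 CPM at P14 (−2.80 ± 0.15, adjusted p = 5.5e-11). Igf1 fell as well (−1.55), so that neither ligand gene was higher at P14. Grb10, an adaptor that damps insulin signalling, fell (−2.82), and so did the RNA-binding partners Igf2bp1 and Igf2bp2 (−4.75 and −2.59). The 2 rises were both binding proteins, Igfbp7 at 5.30, 3.87 and 4.28 CPM at E14.5 and 382, 778 and 427 CPM at P14 and Igfbp3. Igfbp2 went the other way, at 61.7, 50.3 and 80.7 CPM at E14.5 and 0, 0 and 0.295 CPM at P14.

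Among splicing and RNA-binding factors 3 of 27 tested members rose and 14 fell (5 and 6 in edgeR), with a median of −0.58. The splicing factor genes Hnrnpd (−1.65), Hnrnpa1 (−1.57), Hnrnpa2b1 (−0.93) and Tra2b (−1.19) fell. Rbfox1, a muscle and nerve splicing factor, stood at 14.7, 19.7 and 12.3 CPM at E14.5 and 98.3, 102 and 103 CPM at P14 (2.65 ± 0.54), and Mbnl1, which promotes adult splicing, rose by 0.77, a call lost in sarcomere scaling, adjusted p up to 0.0508.

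**Figure D3:**
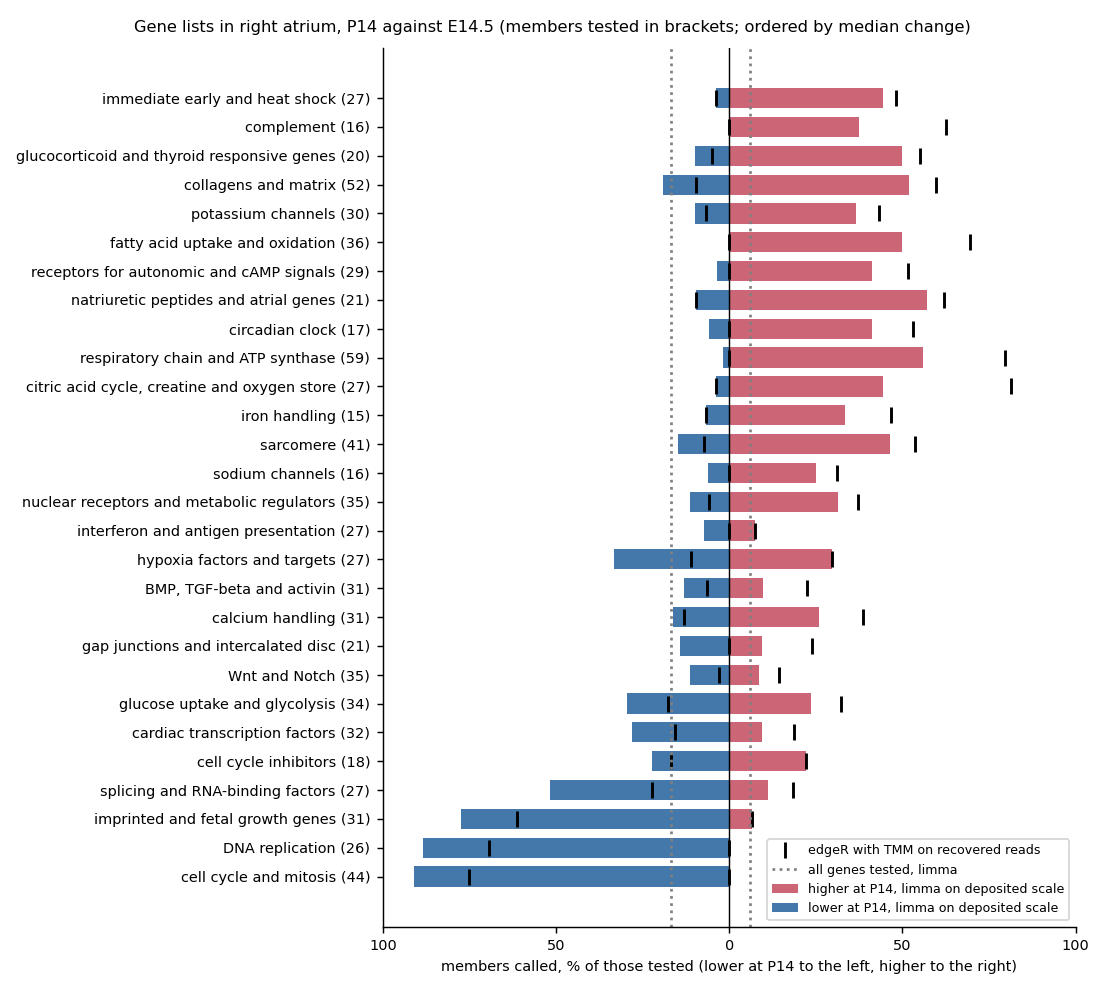
Share of the tested members of each of 28 gene lists called higher (red, to the right) or lower (blue, to the left) at P14 by limma, with the share called by edgeR as black ticks and the share over all genes as dotted lines (5.99% higher, 16.7% lower). Mitosis and replication lists stand at the far left, with no member higher, while the respiratory chain, fat oxidation and citric acid cycle lists reach further right in edgeR than in limma.

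Hypoxia genes gave 8 rises and 9 falls among 27 tested (8 and 3 in edgeR), with a median of 0.06. Epas1, the factor HIF-2 alpha, stood at 167, 247 and 129 CPM at E14.5 and 546, 454 and 499 CPM at P14 (1.51 ± 0.21). Vegfa, which drives vessel growth, stood at 28.9, 66.3 and 45.4 CPM at E14.5 and 135, 182 and 174 CPM at P14 (1.85 ± 0.27). The lipoprotein receptor gene Vldlr stood at 91.1, 88.2 and 89.3 CPM at E14.5 and 692, 680.1 and 742 CPM at P14 (2.96 ± 0.17, adjusted p = 8.2e-11). The P14 libraries of the 3 genes were the higher ones throughout, opposite to Hif3a and Slc2a1 above. Of immediate early and heat shock genes 12 of 27 rose and 1 fell (13 and 1 in edgeR), with a median of 1.31. Egr1 stood at 4.06, 13.1 and 13.6 CPM at E14.5 and 187, 285 and 217 CPM at P14 (4.49 ± 0.47), Cyr61 rose by 3.93 and Dusp1 by 2.53, while Hsp90aa1 fell (−1.31). Each E14.5 library of Egr1 was under 14 CPM and each P14 library above 186.

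Signals of the BMP, TGF-beta and activin families changed about as often as all genes, 22.6% against 22.7%: 3 of 31 tested members rose and 4 fell (7 and 2 in edgeR), with a median of 0.03. Ligand genes moved apart, with falls of Bmp5 (−4.07) and Bmp7 (−6.61) and the rise of Bmp10. The inhibitor Smad7 rose by 1.51, and Fst (follistatin) fell (−3.10), a call lost in edgeR and DESeq2, adjusted p up to 0.0700. Of Wnt and Notch genes 3 of 35 tested members rose and 4 fell (5 and 1 in edgeR), with a median of −0.24. Calls made up 20% of that list, below the 22.7% of all genes. Heyl, a Notch target, stood at 11.5, 10.9 and 8.28 CPM at E14.5 and 137, 111 and 123 CPM at P14 (3.48 ± 0.43). Notch3 rose by 1.30 (lost without E14.5 replicates 1 or 3 or P14 replicates 1 or 3 and in sarcomere scaling and limma without the trend, adjusted p up to 0.0934) and the ligand gene Wnt2b fell (−1.96). The fall of Wnt4 (−1.35) was lost without E14.5 replicates 1 or 2 or P14 replicates 1, 2 or 3 and in 8 other settings, adjusted p up to 0.247.

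Of iron genes 5 of 15 rose and 1 fell (7 and 1 in edgeR), with a median of 0.57. Hfe2 (hemojuvelin), a coreceptor upstream of hepcidin, stood at 19.6, 35.7 and 16.4 CPM at E14.5 and 143, 171 and 123 CPM at P14 (2.62 ± 0.33). Cp stood at 2.48, 0.737 and 2.32 CPM at E14.5 and 112, 124 and 138 CPM at P14 (5.53 ± 0.41). Tfrc, the transferrin receptor, rose by 1.35, and Ftl1, the ferritin light chain, stood at 695, 491 and 1281 CPM at E14.5 and 211, 154 and 297 CPM at P14 and fell (−1.83). Hamp and Hfe2 thus rose in the same P14 libraries, each above every E14.5 library. Of complement genes 6 of 16 rose and 0 fell (10 and 0 in edgeR, and none lower at an unadjusted p under 0.05), with a median of 1.16. Serping1, the C1 inhibitor, stood at 29.4, 35.7 and 39.0 CPM at E14.5 and 153, 183 and 169 CPM at P14 (2.25 ± 0.34, adjusted p = 4.8e-05). C1s was listed at 0 in each E14.5 library and at 8.32, 5.70 and 17.3 CPM at P14, at least 18.9-fold higher against a floor of 3 reads per library. C4b was uneven at P14 (7.30, 0.178 and 12.1 CPM), and its call was lost without E14.5 replicate 1 or P14 replicates 1 or 3 and in limma with a pseudocount of 5, adjusted p up to 0.108. Interferon and antigen presentation genes gave 2 rises and 2 falls among 27 tested (2 and 0 in edgeR), with a median of 0.11. Calls made up 14.8% of that list, below the 22.7% of all genes. Cd74, the invariant chain of class II, rose by 4.26, Tapbp rose by 0.75, and Irf7 fell (−2.06). The call of Tapbp was lost without E14.5 replicates 1 or 3 or P14 replicates 1, 2 or 3 and in sarcomere scaling and limma without the trend, adjusted p up to 0.201. That of Irf7 was lost without E14.5 replicate 2 or P14 replicate 2 and in edgeR and DESeq2, adjusted p up to 0.179.

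Of matrix genes 27 of 52 rose and 10 fell (31 and 5 in edgeR), with a median of 0.94. Col15a1 stood at 2.82, 6.26 and 4.72 CPM at E14.5 and 359.96, 396 and 479 CPM at P14 (6.24 ± 0.36, adjusted p = 8.2e-11). Col14a1 stood at 32.1, 27.6 and 28.1 CPM at E14.5 and 275, 394 and 267 CPM at P14 (3.35 ± 0.37), Col6a1 rose by 2.24 and Prelp, a small proteoglycan, by 3.86. In these genes each P14 library lay above each E14.5 library. Fbn2, the fetal fibrillin, stood at 362, 487 and 433 CPM at E14.5 and 40.9, 43.0 and 35.9 CPM at P14 (−3.38 ± 0.18, adjusted p = 5.5e-11), whereas Fbn1 was not called by limma (1.00 ± 0.38, adjusted p = 0.0628). edgeR called Fbn1 higher (1.42, adjusted p = 0.0138). Hapln1, a link protein of embryonic matrix, fell (−3.92). Fibroblast markers moved with the matrix genes: 14 of 16 rose and 0 fell (14 and 0 in edgeR, and none lower at an unadjusted p), and their summed level was 2446 to 3080 CPM at E14.5 and 9246 to 12040 CPM at P14. Both lists hold 7 genes, Col1a1 and Postn among them. Of fibroblast markers, Mfap5 stood at 2.71, 7.92 and 2.76 CPM at E14.5 and 80.3, 87.3 and 78.7 CPM at P14, Tnxb rose by 2.32, Ddr2 by 2.39 and Pi16 by 3.70. The part of a changed share of fibroblasts in the matrix result was not tested.

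Among vessel genes that were called, rises outnumbered falls. Of 18 endothelial markers 6 rose and 1 fell (7 and 0 in edgeR), with a median of 0.20 against −0.37 over all genes. Calls made up 38.9% of that list, against 22.7% of all genes. Summed levels overlapped, at 2385 to 3095 CPM at E14.5 and 2672 to 3216 CPM at P14. Fabp4, of capillaries and fat, stood at 1.69, 0 and 7.13 CPM at E14.5 and 86.3, 91.8 and 113 CPM at P14 (5.12 ± 0.49). Cd34 rose by 1.97 and Cldn5 by 2.59, the latter only to 4.67, 9.36 and 8.12 CPM at P14. Eng rose by 0.90 (lost without E14.5 replicate 3, adjusted p up to 0.0561), and Cdh5 fell (−0.82, lost in 4 alternative settings, adjusted p up to 0.237). Of 12 smooth muscle and pericyte markers 4 rose and 2 fell (4 and 2 in edgeR). Rgs5 stood at 16.4, 14.6 and 1.87 CPM at E14.5 and 703, 553 and 459 CPM at P14. Myh11, smooth muscle myosin, stood at 1.01, 0.737 and 2.14 CPM at E14.5 and 68.8, 28.2 and 24.7 CPM at P14 (4.07 ± 0.90), and Cspg4 rose by 1.87. Cnn1 stood at 113, 86.4 and 101 CPM at E14.5 and 4.23, 0.535 and 2.66 CPM at P14 and Abcc9 fell (−1.70). Of 17 macrophage and leukocyte markers 3 rose and 0 fell (5 and 0 in edgeR), with summed levels of 124 to 224 CPM at E14.5 and 334 to 428 CPM at P14. Calls made up 17.6% of that list, while all genes gave 22.7% in either direction and 5.99% higher. Lyz2 rose by 1.87 and Mrc1 by 1.37, the latter call lost without E14.5 replicate 1, adjusted p up to 0.0542. Cd163, listed at 0 in each E14.5 library, stood at 5.40, 0.802 and 2.36 CPM at P14, with the call lost without E14.5 replicates 1, 2 or 3 or P14 replicates 1 or 3 and in limma with a pseudocount of 5 and limma without the filter, adjusted p up to 0.176.

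Of 14 epicardial and mesothelial markers 0 rose and 5 fell (1 and 1 in edgeR), with summed levels of 554 to 649.5 CPM at E14.5 and 140.4 to 332 CPM at P14. Bnc1 stood at 47.9, 53.8 and 48.1 CPM at E14.5 and 0.876, 4.45 and 4.28 CPM at P14 (−3.75 ± 0.86). Upk1b stood at 30.6, 26.0 and 23.1 CPM at E14.5 and 7.89, 0.356 and 8.57 CPM at P14. Lrrn4 stood at 70.5, 62.4 and 93.4 CPM at E14.5 and 12.4, 0 and 16.5 CPM at P14, and Krt18 fell (−2.11). Apart from Tbx18, no member of this list that limma called lower was called by edgeR (adjusted p = 0.0569, 0.251, 0.165 and 0.0909). The call of Upk1b was lost without E14.5 replicates 1 or 2 or P14 replicate 2 and in edgeR and DESeq2, adjusted p up to 0.318. That of Lrrn4 was lost without P14 replicate 2 and in edgeR and DESeq2, adjusted p up to 0.277, and that of Krt18 without E14.5 replicates 1 or 3 or P14 replicate 1 and in edgeR, adjusted p up to 0.0969. Of 10 erythroid markers 0 rose and 7 fell (0 and 6 in edgeR), with a median of −3.30. Their sum was 16740, 2590 and 23980 CPM in the E14.5 libraries and 221 to 506 CPM at P14. Alas2, of red cell heme synthesis, fell (−2.62), and hemoglobin genes share reads with close copies. E14.5 replicate 2 thus stood far below the other two, and the part of blood RNA in other results was not tested.

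The 2 adipocyte markers tested rose, Cidea and Fabp4 (2 in edgeR), with Cidea under 4 CPM in each library and its call lost without E14.5 replicates 1 or 3 or P14 replicates 2 or 3 and in limma with a pseudocount of 5, adjusted p up to 0.0962. Neuron markers gave 1 rise, Dbh (0.902, 0.553 and 0 CPM at E14.5 and 29.9, 27.8 and 16.8 CPM at P14), and 1 fall, Uchl1, of 8 tested (1 and 1 in edgeR), and glial markers 2 rises, Cdh19 and Erbb3 (2.53 and 2.66), of 9 (3 in edgeR). These are 25% and 22.2% of the lists, near the 22.7% of all genes. Cartilage markers gave 1 rise, Comp (1.88), and 2 falls, Col2a1 and Col9a1 (−2.25 and −1.71), of 5 (1 and 2 in edgeR). Of 7 venous and skeletal muscle markers Ckm rose and Actn3 fell (−2.72, lost in edgeR and DESeq2, adjusted p up to 0.206), and edgeR gave 1 rise and 1 fall in that list. Of 7 working myocyte markers 4 rose (5 in edgeR). No ventricular, left atrial, lymphocyte or sex-specific marker was called by limma or edgeR, of 4, 1, 4 and 5 tested, or reached an unadjusted p under 0.05. Airway markers were below the filter, at a summed 0.713 to 4.62 CPM at E14.5 and 0 to 4.37 CPM at P14.

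The libraries from P4 show how much of each change was present shortly after birth. P4 was compared with the midpoint of E14.5 and P14, a contrast independent of the change itself. Of 17568 genes 261 (1.49%) departed from it, 169 above (0.962%) and 92 below (0.524%), against 106 (0.603%) and 64 (0.364%) in edgeR, together 0.968%. These counts depended on single libraries. They were 57 and 15 without P4 replicate 3, the shallowest at 5101711 reads, 56 and 36 without P4 replicate 2, 91 and 38 without E14.5 replicate 1, 92 and 47 without P14 replicate 1, and 97 and 60 without E14.5 replicate 3. Among genes called higher at P14, the median share of the log2 change present at P4 was 64.6%, and among those called lower it was 42.7%. These shares, and those of single genes below, are on the deposited scale. Other scalings were not tried for them.

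Division genes had come down in part. Mki67 stood at 525, 533 and 573 CPM at P4, with 36.4% of its log2 change made, and Ccnb2 at 31.3, 34.0 and 35.5 CPM, with 33.7%. Each P4 library of both genes lay between the ranges of the other stages. By the test, 0 of 44 mitosis genes and 0 of 26 replication genes departed from the midpoint. Of all genes 1.49% did, so 0 in lists of this size is no trait of division genes. Slc2a1 had already reached its P14 level, at 26.0, 35.7 and 18.7 CPM (97.9% of the change, −1.58 ± 0.22 against the midpoint, adjusted p = 0.00049). Tnni1, at 434, 495 and 286 CPM, had made 20.4% of its change (1.34 ± 0.19, adjusted p = 0.00073). Glucose transporter and troponin thus lay on opposite sides of the midpoint. Mb had made 78.9% of its change, Kcnj3 88.1% and Kcna1 32.4%, and none of these 3 departed from the midpoint by the test. Igfbp2 was at 0.102, 0 and 0 CPM, already at its P14 level.

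By the conditions used for the largest changes, the 5 largest departures above the midpoint were Nov, Col24a1, Dpt, Tnc and Aspn. Nov (CCN3), a matricellular protein, stood at 0.338, 0.369 and 0.356 CPM at E14.5, 109, 169 and 161 CPM at P4 and 19.3, 20.3 and 14.6 CPM at P14 (4.84 ± 0.52, adjusted p = 3.5e-05). Tnc (tenascin-C), known from matrix under remodelling, stood at 35.1, 50.7 and 36.3, then 353, 745 and 564, then 94.6, 127 and 73.2 CPM (3.07 ± 0.54, adjusted p = 0.00487). Both genes thus peaked at P4, above every library of the other stages. Col24a1, a fibrillar collagen, was at 90.1, 123 and 145 CPM and Aspn (asporin) at 141, 414 and 452 CPM at P4, against 17.5, 22.2 and 13.6 and 120.2, 116 and 119 CPM at P14. Dpt was at 171, 408 and 393 CPM at P4, against 208, 659 and 199 CPM at P14. Of the matrix list 8 of 52 lay above the midpoint and 1 below, and fibroblast markers moved with them, 5 of 16 above and 1 below, with a sum of 7658 to 17220 CPM at P4. Whether the share of fibroblasts differed was not tested.

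Below the midpoint, and with hemoglobins again left out, the 5 largest were Hamp, Ptprt and 3 epicardial genes. Hamp stood at 1.12, 0 and 0 CPM at P4, so that its rise came after that day (−3.29 ± 0.45 in limma, adjusted p = 0.00036, but 0.993 in edgeR). Ptprt, a receptor phosphatase, stood at 6.99, 15.5 and 6.59, then 1.12, 4.09 and 0.215, then 55.3, 71.4 and 68.7 CPM, lowest at P4 (adjusted p = 0.0017, and 0.0503 in edgeR). The epicardial genes Upk3b, Upk1b and Bnc1 were at 0.509, 15.8 and 0, at 0.102, 0.314 and 0 and at 0.407, 2.10 and 0 CPM at P4. Their calls (adjusted p = 0.0454, 0.0119 and 0.0378) were lost without single libraries, Upk1b without P4 replicate 3 alone. Of 14 epicardial markers 4 lay below the midpoint.

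**Figure D4:**
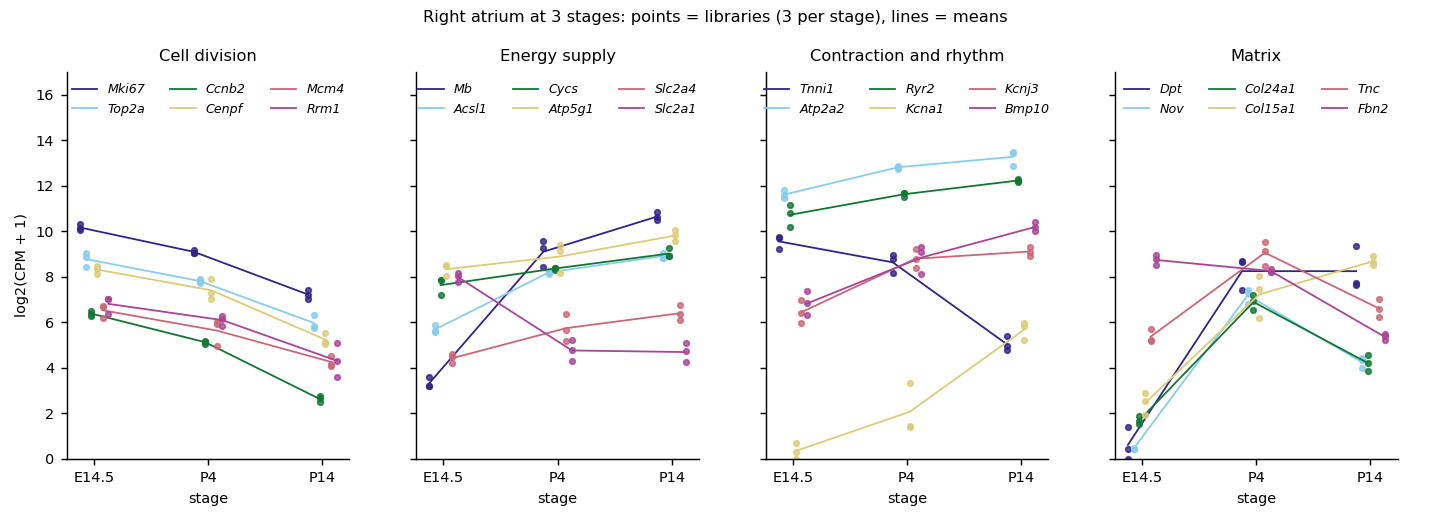
Level of 24 genes in the right atrium at E14.5, P4 and P14 as log2(CPM + 1), with each of the 3 libraries per stage as a point and lines through the means. Division genes fall at each step, Slc2a1 is down by P4 while Tnni1 falls after it, and Tnc and Nov are highest at P4.

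The same interval in the sinoatrial node shows which atrial changes differed from those beside it. The test is of the difference, the RA change minus the node change. Of 17568 genes 399 (2.27%) differed, 111 with the RA change above (0.632%) and 288 below (1.64%), against 110 (0.626%) and 117 (0.666%) in edgeR, together 1.29%. The counts were 64 and 142 without RA E14.5 replicate 1, 62 and 128 without node E14.5 replicate 1, 67 and 154 without node E14.5 replicate 2, 69 and 155 without RA P14 replicate 2. They were 68 above without RA P14 replicate 3, and 117, 179 and 184 below without RA E14.5 replicate 2, RA P14 replicate 1 or node P14 replicate 2. Of 1052 genes higher in the RA at P14, 642 were also called higher in the node (61% of the RA calls and 37.5% of the node calls), and of 2936 lower, 1499 (51.1% and 58.8%). The node calls were 9.74% of all genes higher and 14.5% lower. Only 8 and 35 were called in the opposite direction.

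Of 44 mitosis genes 39 fell in the node too, and 1 had a change that differed between the tissues, near the 2.27% of all genes. Of 59 respiratory chain genes 2 were called higher in the node, and the change differed in 4, each with the RA above. Of 21 atrial genes 4 lay above and 1 below. Nppb was 13.6, 0.185 and 8.73 CPM in the node at E14.5 and 0, 0.666 and 0.0801 CPM at P14, and so went down there while it rose in the RA (difference 5.14 ± 0.96, adjusted p = 0.0056). Fndc5 stood at 20.2, 19.9 and 27.4 and then 52.0, 88.5 and 47.7 CPM in the node, a rise of 1.40 against 6.65 in the RA (difference 5.25 ± 0.54, adjusted p = 2e-05). Tbx3, at 289, 324 and 215 and then 400.2, 459 and 377 CPM in the node, differed by 2.16 ± 0.48 (adjusted p = 0.0199), and remained far lower in the RA at both stages.

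Dpt rose more in the RA (4.77 ± 0.73), from almost no reads to 208, 659 and 199 CPM at P14. In the node it went from 27.0, 31.2 and 63.3 CPM at E14.5 to 221, 395 and 254 CPM at P14. The tissues thus overlapped at P14 and were apart at E14.5, where the RA was the lower. Mlana, known from pigment cells, stood at 0, 0.369 and 0.535 CPM at E14.5 and 45.4, 39.3 and 73.2 CPM at P14 in the RA and at no more than 2.80 CPM in the node (5.05 ± 0.74, adjusted p = 0.00076, but 0.0845 in edgeR). Ces1d stood at 0 in the 3 node libraries of E14.5 and at 0.409, 2.00 and 2.88 CPM at P14 (4.95 ± 0.68), and edgeR did not call its difference (adjusted p = 0.832). Below the line were Lrrn4, Fam163a, Lrp2, Atp2a3 and Igfbp2. Lrp2, the endocytic receptor megalin, stood at 18.5, 23.0 and 35.1 CPM at E14.5 and 1.02, 1.34 and 2.95 CPM at P14 in the RA and went from 0, 1.66 and 6.92 to 32.6, 19.3 and 15.8 CPM in the node (−6.30 ± 0.84, adjusted p = 0.00031). Fam163a differed by −6.41 ± 1.00 and Atp2a3, a calcium pump, by −5.80 ± 1.12, with node levels at P14 of 24.7, 191 and 40.2 and 83.6, 9.46 and 54.7 CPM. Igfbp2 was at 2.82, 2.71 and 3.61 CPM in the node at E14.5 (difference −5.75 ± 0.71). From that level a fall as large as in the RA was not possible. Lrrn4 (−6.58 ± 1.44) was not called by edgeR (adjusted p = 0.223).

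Over all genes 1.64% lay below and 0.632% above in limma. Complement genes lay below in 2 of 16 cases (median of the difference −1.99), epicardial markers in 2 of 14 (−3.23) and macrophage markers in 2 of 17 (−1.62). Of 16 fibroblast and 18 endothelial markers, 1 lay above and 1 below in each list. In the node 15 of 16 complement genes and 13 of 17 macrophage markers rose. The part of such cells in the differences was not tested.

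**Figure D5:**
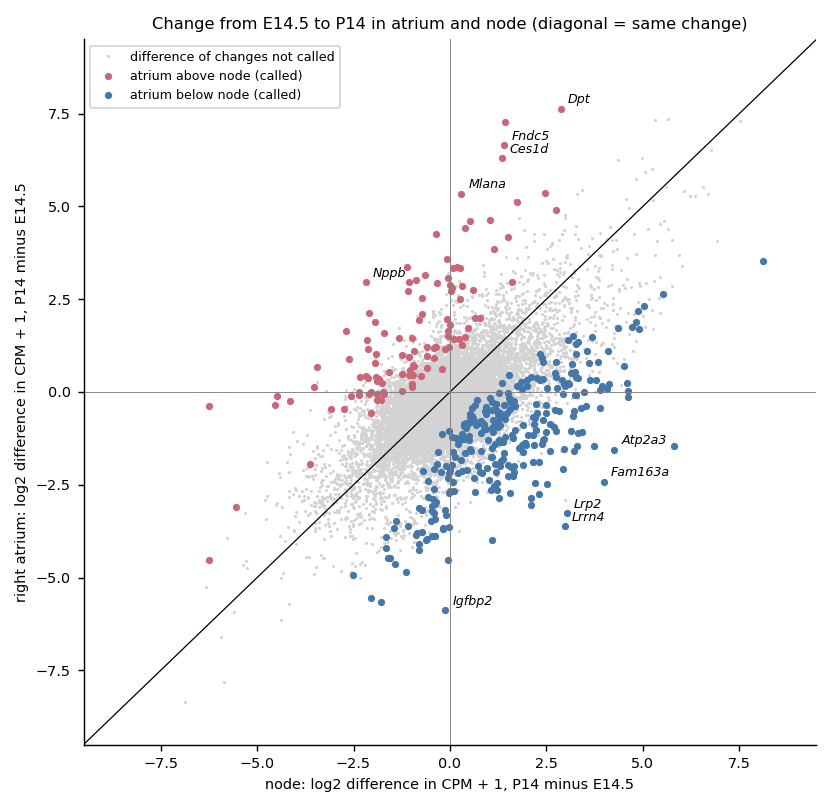
Log2 difference between P14 and E14.5 in the right atrium (vertical axis) against that in the sinoatrial node (horizontal axis) for each tested gene, with called differences between the tissues in colour, the line of equal change, and labels on the 10 largest differences by the conditions used for the largest changes. Nppb, Fndc5, Mlana, Ces1d and Dpt stand above it.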

How the data were processed

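RNA from laser-captured right atrium and sinoatrial node was sequenced and summarised by the authors. The deposited table gives 1 normalized signal per gene and library, for 20870 genes in 25 libraries. TopHat2 2.0.6, edgeR and the build mm8 are named per the submitters' processing notes, without roles, and the counting, its strand setting and the annotation are not given in the sources used here. Within each library used here the deposited values are whole multiples of 1 step (100% of values within 0.1), from which reads were recovered, and every value was divided by 24.3 to give CPM.

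limma 3.58.1 was fitted in R 4.3.3 to log2(CPM + 1) with a mean-variance trend over 18 libraries in 6 groups, which share 1 estimate of spread. Genes needed 1 CPM in at least 3 libraries. Because the test uses log2(CPM + 1), fold changes of low genes are understated. edgeR 4.0.16 (quasi-likelihood, TMM) and DESeq2 1.42.0 on recovered reads were alternatives, with other scalings, pseudocounts of 0.5 and 5, no filter, no trend, library weights, fewer groups, a replicate block and each library left out. Limma on TMM recomputed over the 18 libraries was added after seeing the data. On simulated data for P14 against E14.5 in 16962 genes, limma recovered 21.6% of 88 genes changed 2-fold and 65.2% of 112 changed 4-fold, with 4 false calls among 16762 genes. Apart from the changed genes, every simulated group was drawn around the same mean. A shift between stages like that of the deposited scale was not simulated, so false calls from scaling were not tested.

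Genes were named by a rule: fixed anchors and pairs, the 15 largest called changes each way without overlap and with a group mean of at least 5 CPM (leaving out unnamed models, hemoglobins and the like), up to 5 called members per list by p-value with the largest change against it, and the 5 largest each way in the other contrasts. Some genes this rule names are not reported here. Members, lists and tests were chosen with earlier results of these data known. Promoters come from RefSeq (GRCm38.p6), matched by symbol for 10737 of 17568 tested genes.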

Additional observations from a re-analysis of the deposited data

Results flagged for a closer look

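For 10 genes the change from E14.5 to P14 differed between right atrium and node by limma's test of that difference, and each was among the 5 largest in its direction by the conditions used for the largest changes. The atrial change was above that of the node in Fndc5 (5.25), Nppb (5.14), Mlana (5.05), Ces1d (4.95) and Dpt (4.77). It was below in Lrrn4 (−6.58), Fam163a (−6.41), Lrp2 (−6.30), Atp2a3 (−5.80) and Igfbp2 (−5.75). edgeR did not call the differences of Ces1d, Mlana and Lrrn4 (adjusted p = 0.832, 0.0845 and 0.223). Ces1d was listed at 0 in each E14.5 node library, so that its change there has no measured start. Igfbp2 was too low in the node at E14.5 for a fall as large as that in the atrium. Atp2a3 was not called in the atrium itself (adjusted p = 0.169), and the Fam163a call in the atrium was lost without E14.5 replicate 3 and in limma with a pseudocount of 5, adjusted p up to 0.192. The part of other cell types in these differences was not tested.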

How the results depend on the processing

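Of 221 named genes called at P14 against E14.5, 182 kept their call and sign in every setting run. Rises (1052) became 2044 with library weights, 1896 in DESeq2 and 1706 on recomputed TMM. Falls (2936) became 4909 on sarcomere scaling, 5596 with weights, 1146 in edgeR, 1539 in DESeq2 and 1496 on recomputed TMM. Without 1 library rises were 796 to 931 and falls 1956 to 2504. Departures of P4 above the midpoint (169) became 68 on upper quartiles, 64 without the trend, 811 with weights, 106 in edgeR, 102 on recomputed TMM and 56 to 164 without 1 library. Those below (92) became 35 without the trend, 291 with weights, 188 in DESeq2 and 15 to 101 without 1 library. Differences from the node above 0 (111) became 403 with weights, 278 in DESeq2, 174 on recomputed TMM and 62 to 94 without 1 library. Those below 0 (288) became 817 on sarcomere scaling, 994 with weights, 117 in edgeR and 117 to 357 without 1 library. The cause of these moves was not tested.

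Signs reversed only in uncalled named genes. On sarcomere scaling Actc1 was −0.09, Ldha −0.22, Ldhb −0.11 and Ppargc1a −0.19. In edgeR, DESeq2 and on recomputed TMM Cox6a1 was 0.03, 0.03 and 0.05, Hk1 0.04, 0.03 and 0.03, and Slc25a5 0.33, 0.33 and 0.39. Slc25a5 was also 0.18 on upper quartiles, and 0.05, 0.17 and 0.10 without E14.5 replicate 1, E14.5 replicate 3 or P14 replicate 2. With weights Ldha was −0.08 and Ldhb −0.04. Leaving out 1 library gave Ldha −0.19 to 0.21 (below 0 without E14.5 replicate 2 or P14 replicate 2), Ldhb −0.09 to 0.34 (without P14 replicate 2) and Ppargc1a −0.09 to 0.25 (without E14.5 replicate 3).

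Libraries share replicate numbers across stages, but the labels tie no number to an animal. Deviations of same-numbered libraries had r of −0.034 to 0.0137 and other pairs −0.0643 to 0.0694, and 0 of 6 libraries matched best with its own number. A fit with the replicate block gave 1038 rises and 2855 falls, 167 and 94 departures from the midpoint, and 104 and 270 differences from the node. At 1 read per 0.0891 to 0.184 CPM, levels under 1 CPM rest on few reads.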
